A study of Mus musculus with 11 samples.

Results

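Sdha, Sdhb, Sdhc and Sdhd encode the 4 subunits of respiratory complex II, the succinate dehydrogenase of the inner mitochondrial membrane. They are 4 of the 55487 genes in the deposited tables, taken by symbol, and all 4 passed the filter on low counts. The set was chosen on earlier results of these same data, because Sdhd was among the 3 genes called between the 2 knockouts. That difference is therefore given below without a test, for all 4 genes.

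The libraries came from the gastrocnemius, a hindlimb muscle, of adult mice, and were made from 450 ng of RNA with QuantSeq 3' mRNA FWD, which reads tags near the 3' end of polyadenylated transcripts. There were 4 wild-type libraries, 3 from mice with a Raptor deletion (the Raptor knockout) and 4 from mice with a deletion of Raptor and mTOR (the double knockout). In what follows they are the Raptor KO and the DKO. The floxed alleles were cut by a tamoxifen-activated Cre (fused to a mutated oestrogen receptor) under the promoter of human skeletal actin, so the deletion is aimed at myofibres, and the other cells of the muscle are not its target. Mice of all 3 groups are labelled as treated with tamoxifen at 3 months of age. It was given in chow for 7 weeks, and muscles were taken 7 months after it began. Whether the wild-type mice carried Cre or floxed alleles was not given in the sources used here. In whole muscle, fewer cells of a type and less RNA per cell cannot be told apart.

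Complex II oxidises succinate to fumarate in the tricarboxylic acid cycle and passes the electrons to ubiquinone, so it belongs to both the cycle and the respiratory chain. Sdha carries the FAD cofactor and the succinate-binding site, and Sdhb carries the iron-sulfur clusters that conduct the electrons. Sdhc and Sdhd are the membrane anchors that together hold the haem group and take part in the ubiquinone site. All 4 subunits are encoded in the nucleus, and skeletal muscle, above all its oxidative fibres, is rich in the complex.

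In the DKO the anchor transcript Sdhd was 3.38-fold lower than in wild type and the iron-sulfur subunit Sdhb 1.79-fold lower. Sdhd was chosen on the DKO and Raptor KO libraries, so its fall is not independent of that choice. Without wild-type replicate 4 the log2 fold change of Sdhb was -0.47, against -0.84 with all libraries. In 5 of 23 other settings Sdhb did not pass the test there. The flavoprotein Sdha and the other anchor, Sdhc, did not pass the test. None of the 4 passed it in the Raptor KO. Levels are CPM, counts scaled to library size with TMM factors, and a gene is called at an adjusted p under 0.05 in edgeR's two-sided quasi-likelihood test, with p-values adjusted by Benjamini-Hochberg over all 10505 genes tested. The groups were not balanced in 2 respects. Xist, an RNA made from the X chromosome that is silenced in female cells, was at 95.6 to 208 CPM in 4 libraries (wild-type replicate 3 and the DKO ones numbered 1 to 3) and at 1 count or fewer in the other 7. The DKO replicates 3 and 4 were in a sequencing run of their own.

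**Figure D1:**
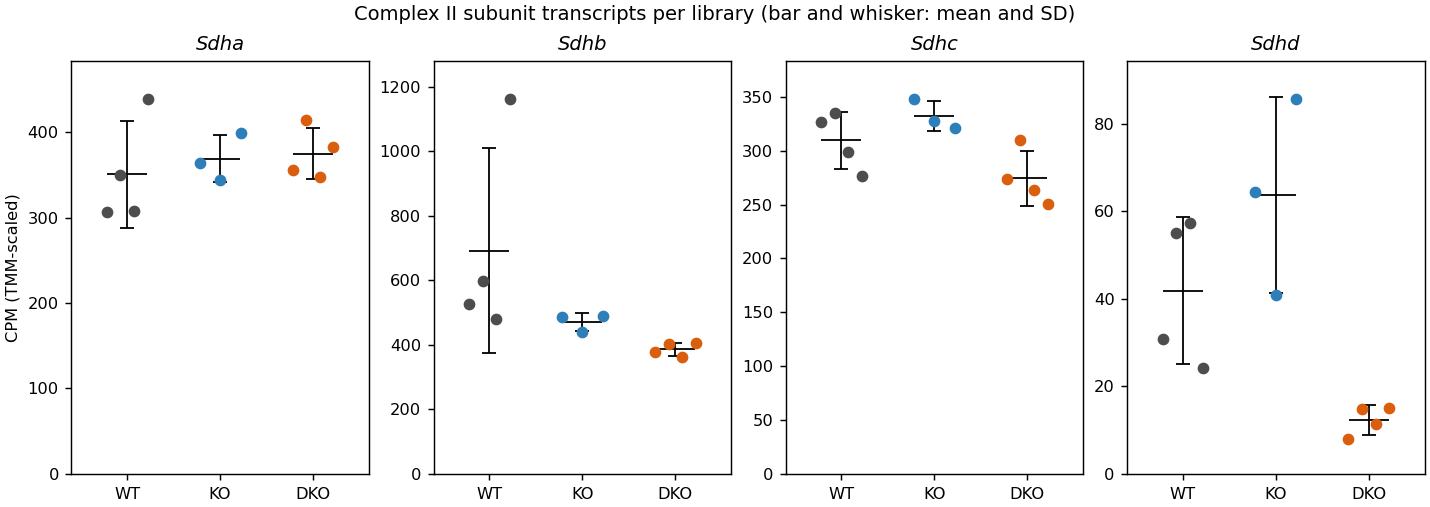
TMM-scaled CPM (vertical axes, each from 0) of the 4 subunits in every library of wild type (WT, n = 4), Raptor KO (KO, n = 3) and DKO (n = 4), with the group mean and SD. Sdhd lies between 7.90 and 15.1 CPM in the 4 DKO libraries, below the other 7, and 1 WT library of Sdhb stands high at 1163 CPM.

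The promoters are shown because Sdhd shares its start region with a neighbour. Those of Sdha and Sdhb are given beside it, and no promoter entry for Sdhc was available. RefSeq (GRCm38.p6) gave windows of 300 bases, from 250 before to 50 after the start site, for Sdha, Sdhb and Sdhd. They are chr13:74350191-74350490 (minus strand), chr4:140961021-140961320 (plus strand) and chr9:50603800-50604099 (minus strand). Each is printed 5′ to 3′ on the gene's own strand, with motif matches in capitals.
Sdha: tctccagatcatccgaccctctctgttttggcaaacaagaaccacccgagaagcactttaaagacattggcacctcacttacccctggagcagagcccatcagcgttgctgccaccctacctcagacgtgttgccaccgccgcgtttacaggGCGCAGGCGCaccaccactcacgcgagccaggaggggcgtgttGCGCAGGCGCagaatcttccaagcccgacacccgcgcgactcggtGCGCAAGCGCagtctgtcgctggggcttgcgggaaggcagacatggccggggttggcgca
Sdhb: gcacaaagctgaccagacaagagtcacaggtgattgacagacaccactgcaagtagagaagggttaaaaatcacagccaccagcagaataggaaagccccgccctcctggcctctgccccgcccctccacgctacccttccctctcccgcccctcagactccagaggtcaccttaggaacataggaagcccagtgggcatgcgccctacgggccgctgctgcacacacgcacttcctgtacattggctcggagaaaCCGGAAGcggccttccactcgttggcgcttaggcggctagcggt
Sdhd: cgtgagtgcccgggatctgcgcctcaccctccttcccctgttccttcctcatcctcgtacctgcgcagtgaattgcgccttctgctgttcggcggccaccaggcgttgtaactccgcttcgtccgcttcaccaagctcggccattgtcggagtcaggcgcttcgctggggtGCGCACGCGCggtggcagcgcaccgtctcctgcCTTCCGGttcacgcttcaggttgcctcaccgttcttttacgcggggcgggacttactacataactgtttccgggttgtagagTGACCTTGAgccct
Capitals mark the NRF1 core, the ETS core CCGGAAG and the ERR site TCAAGGTCA, searched on both strands together with the YY1 core AAGATGGC and the TATA box TATAAA. NRF1, the ETS factor GABP and the ERR receptors are known regulators of nuclear genes for the respiratory chain. Sdha holds 3 NRF1 cores, starting at -98, -55 and -10 from the start site, and no other match. Sdhb holds 1 ETS core, at position 6 after the start site. Sdhd holds an NRF1 core at -79, an ETS core at -46 (as its reverse complement) and an ERR site at 36 (as its reverse complement). Of 32851 RefSeq promoter windows of this length, 4.6% hold the NRF1 core, 8.86% the ETS core and 0.423% the ERR site. The YY1 core (2.75% of windows) and the TATA box (13.6%) were in none of these 3. GC content was 62.7% for Sdha, 60% for Sdhb and 62% for Sdhd, against a median of 52.7% over all windows. These matches are letters only, and binding was not measured.

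Sdha (ENSMUSG00000021577, GRCm38 chromosome 13, 74322254 to 74350280, minus strand) is the catalytic flavoprotein. It stood at 306, 349, 308 and 439 CPM in the wild-type libraries, at 364, 344 and 399 in the Raptor KO, and at 356, 414, 347 and 383 in the DKO. The 3 groups overlapped, and the highest library was wild-type replicate 4. Against wild type the log2 fold change was 0.10 in the DKO (SE 0.13, 95% interval -0.18 to 0.37, edgeR adjusted p = 0.619) and 0.07 in the Raptor KO (SE 0.14, interval -0.22 to 0.37, edgeR adjusted p = 0.763). The intervals leave room for a rise of up to 0.37, so equal levels are not shown.

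The deposited TPM gave Sdha another answer. Sdha stood at 141 to 198 TPM in wild type, 206 to 243 in the Raptor KO and 237 to 250 in the DKO, and every library of either knockout was above every wild-type library. The share of all genes so ordered in TPM was not counted. With limma on log2(TPM + 1) Sdha was called higher in the DKO (log2 fold change 0.64, SE 0.12, limma adjusted p = 0.00257) and in the Raptor KO (0.49, SE 0.13, limma adjusted p = 0.0226). On that scale the median of all genes was 0.14 in the DKO and 0.09 in the Raptor KO. The TPM of Sdha per unit of unscaled CPM had a mean log2 of -1.01 in wild type, -0.80 in the Raptor KO and -0.71 in the DKO, and the ranges of the 2 knockouts (-0.88 to -0.65 together) did not meet that of wild type (-1.07 to -0.94). For Sdhd the same quantity was -0.30, -0.39 and -0.37, and Sdhb and Sdhc were likewise lower in the knockouts than in wild type. TPM divides by an effective length that depends on which of a gene's transcripts the tags were assigned to, and Sdha has 9 annotated transcripts. Which of them the tags came from was not tested.

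Sdhb (ENSMUSG00000009863, chromosome 4, 140961203 to 140979193, plus strand) carries the iron-sulfur clusters. It stood at 527, 598, 480 and 1163 CPM in wild type, at 488, 440 and 488 in the Raptor KO, and at 379, 402, 362 and 404 in the DKO. Every DKO library was below every wild-type library, and wild-type replicate 4 was far above the other 3. Sdhb fell by 0.84 (log2) in the DKO (SE 0.22, 95% interval -1.32 to -0.36, edgeR adjusted p = 0.0133). Without wild-type replicate 4 the difference was -0.47 (SE 0.10, edgeR adjusted p = 0.00161), still called. The call ended in 5 of 23 alternatives, among them the larger sequencing run alone (-0.83, edgeR adjusted p = 0.0863), run as a covariate (-0.83, edgeR adjusted p = 0.0682) and Xist as a covariate (-0.60, edgeR adjusted p = 0.140).

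In the Raptor KO Sdhb overlapped wild type, with a log2 fold change of -0.55 (SE 0.24, interval -1.07 to -0.03, edgeR adjusted p = 0.136). It was the only subunit there with an unadjusted p under 0.05 in edgeR, as were 31.7% of all genes. The value was -0.18 without wild-type replicate 4 (edgeR adjusted p = 0.226) and -0.73 without wild-type replicate 3, where it was called (edgeR adjusted p = 0.0418).

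Sdhc (ENSMUSG00000058076, chromosome 1, 171127165 to 171150603, minus strand) is one of the 2 membrane anchors. It stood at 327, 335, 299 and 277 CPM in wild type, at 348, 327 and 321 in the Raptor KO, and at 274, 310, 264 and 250 in the DKO. The DKO libraries lay at the low end of the wild-type range and overlapped it. The log2 fold change against wild type was -0.17 in the DKO (SE 0.11, interval -0.41 to 0.07, edgeR adjusted p = 0.283) and 0.10 in the Raptor KO (SE 0.12, interval -0.15 to 0.36, edgeR adjusted p = 0.603). Scaled by library totals, the DKO value turned to 0.06, where the median of all genes moved up by 0.23. Sdhc shares at least 95% identity over at least 60 bases with 1 other annotated gene, Gm37353, so its count is uncertain where reads could be split; no such copy was found for the other 3.

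Sdhd (ENSMUSG00000000171, chromosome 9, 50596357 to 50603812, minus strand) is the other anchor, with 1 annotated transcript of 4 exons and 1231 bases. It stood at 30.8, 55.1, 57.4 and 24.1 CPM in wild type, at 64.4, 40.9 and 85.7 in the Raptor KO, and at 7.90, 14.8, 11.4 and 15.1 in the DKO. The counts behind them were 107 to 349 in wild type, 151 to 292 in the Raptor KO and 25 to 55 in the DKO. All 4 DKO libraries were below all other libraries, and wild type and Raptor KO overlapped. The mean was 41.9 ± 16.9 CPM in wild type (SD, n = 4), 63.7 ± 22.4 in the Raptor KO (SD, n = 3) and 12.3 ± 3.39 in the DKO (SD, n = 4).

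Against wild type Sdhd fell by 1.76 (log2) in the DKO (SE 0.33, 95% interval -2.47 to -1.04, edgeR adjusted p = 0.00162). The comparison uses the same DKO libraries on which the gene was chosen, so it is not independent of that choice. The call held in the other 22 settings tried, from -1.95 to -1.47, and the larger sequencing run alone gave -1.87 (edgeR adjusted p = 0.0173). It ended only in the 7 libraries without Xist (-1.28, SE 0.54, edgeR adjusted p = 0.244), an alternative chosen after seeing the data that leaves 1 DKO library, which stood at 15.1 CPM.

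In the Raptor KO the Sdhd log2 fold change was 0.61 (SE 0.32, interval -0.09 to 1.3, edgeR adjusted p = 0.215). The gene was chosen on these Raptor KO libraries too, so this estimate is also not independent of that choice. The interval holds both a small fall and a large rise, and the lowest Raptor KO library (40.9 CPM) was below 2 of the wild-type ones.

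Counted over the set, 2 of the 4 subunits were called lower and 0 higher in the DKO, where 13.7% of all tested genes were called lower and 13.0% higher. The same 2 had libraries that did not overlap, all lower, as did 13.6% of all genes. The median log2 fold change was -0.51 over the 4 and 0.02 over all genes. Sdhd is among the 2 called, and it was chosen on the DKO and Raptor KO libraries. The counts and medians of this set are therefore not independent of that choice. In the Raptor KO edgeR called 0 of the 4, where it called 18.2% of all genes. DESeq2's Wald test also called 0 there, and limma on the TPM called Sdha. The median was 0.09 over the 4 and 0.00 over all genes. Both comparisons use the same 4 wild-type libraries.

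Between the 2 knockouts, the contrast behind the choice of Sdhd, the log2 difference (DKO minus Raptor KO) was -2.36 for Sdhd (SE 0.34, 5.14-fold lower). It was -0.29 for Sdhb (SE 0.24), -0.28 for Sdhc (SE 0.12) and 0.02 for Sdha (SE 0.14). For Sdhb, Sdhc and Sdhd every DKO library was below every Raptor KO library, while Sdha overlapped. That ordering held for 7.03% of all genes, and 0.0286% were called. No test is given for any of the 4 here.

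**Figure D2:**
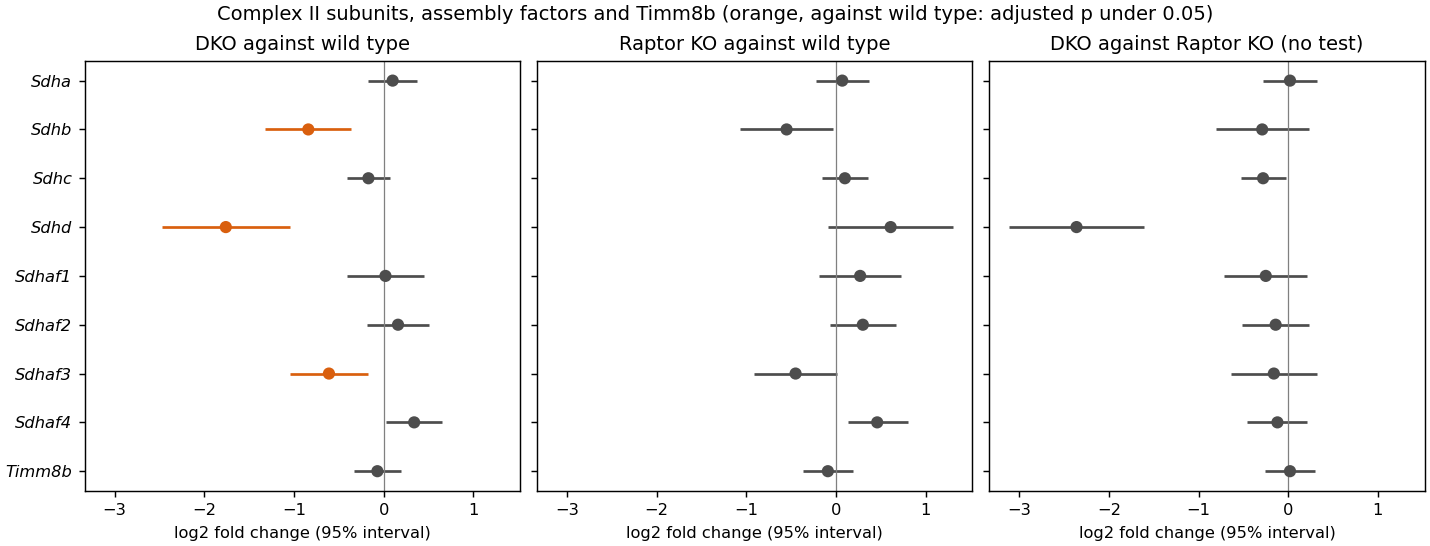
Log2 fold changes with 95% intervals (horizontal axis) of the 4 subunits, the 4 assembly factors and Timm8b in each comparison, with orange for an adjusted p under 0.05 against wild type. In the right panel (DKO against Raptor KO) the intervals of the subunits are not a test, since Sdhd was chosen on that contrast. Sdhd lies at -1.76 against wild type and at -2.36 against the Raptor KO, while the neighbouring Timm8b lies within 0.09 of 0 in all 3 panels.

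The subunits also differed in how much they varied among libraries of a group. In wild type the coefficient of variation was 40.3% for Sdhd and 45.9% for Sdhb, against 17.8% for Sdha and 8.56% for Sdhc. The median over the 5898 genes with a mean of at least 10 CPM was 18.2%, and 93.9% of them varied less than Sdhd. Counting error alone would give Sdhd 7.33%. For Sdhb the spread came with 1 library, whereas for Sdhd replicates 2 and 3 stood at 55.1 and 57.4 CPM and replicates 1 and 4 at 30.8 and 24.1. Sdhd was the most variable of the 4 in the Raptor KO (35.2%, against 4.31% to 7.6% for its partners) and in the DKO (27.5%, against 5.21% to 9.33%), where counting error alone would give 15.1%.

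Per length, as deposited TPM, the order of the levels was Sdhb, Sdha, Sdhc, Sdhd in all 11 libraries, and no neighbours in that order overlapped within a group. Wild-type means were 541 TPM for Sdhb (411 to 854), 158 for Sdha (141 to 198), 85.3 for Sdhc (70.2 to 91.7) and 31.3 for Sdhd (16.4 to 45.4). Tags come from the 3' end whatever the length of a transcript, so dividing by length lowers the values of longer ones. In CPM the order did not hold in every library. Sdhc was above Sdha in wild-type replicate 1 (327 against 306 CPM), and Sdha above Sdhb in DKO replicate 2 (414 against 402). Sdhd made up 1.44% to 6.62% of the summed TPM of the 4 subunits in wild type, 4.53% to 8.23% in the Raptor KO and 0.989% to 1.76% in the DKO. The wild-type library at 1.44% is replicate 4, the one high in Sdhb.

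The proportions of the subunits to each other were set side by side within each library. The ratio of Sdhc to Sdhd TPM was 1.95 to 4.29 in wild type, 1.4 to 2.99 in the Raptor KO and 6.18 to 13 in the DKO, which did not overlap the others. The ratio of Sdha to Sdhb TPM, the catalytic pair, was 0.232 to 0.343 in wild type, 0.501 to 0.581 in the Raptor KO and 0.678 to 0.734 in the DKO. In CPM the same ratio was 0.378 to 0.641, 0.747 to 0.818 and 0.939 to 1.03. The 3 groups were apart on both scales. These ratios are a description, since they rest on the genes chosen.

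**Figure D3:**
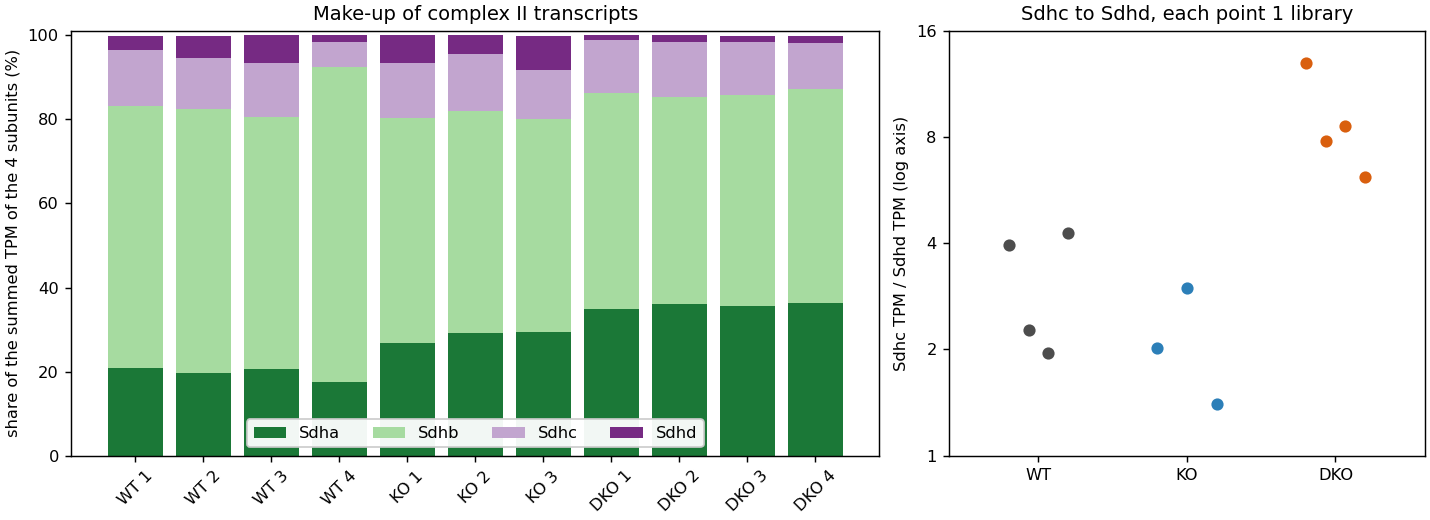
Left, the share of the summed TPM of the 4 subunits (percent, vertical axis) taken by each subunit in every library. Right, the Sdhc to Sdhd TPM ratio (log axis) by group, with each point 1 library. The Sdhd share is smallest in the 4 DKO libraries (0.989% to 1.76%) and WT replicate 4 (1.44%), and the ratio is 6.18 or more in DKO and 4.29 or less elsewhere.

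Sdhd lies head to head with Timm8b, which encodes a small chaperone of the intermembrane space that escorts proteins to the inner membrane. Their RefSeq start sites (50603849 and 50603901) have 51 bases between them, and their promoter windows share 151 bases, including the NRF1, ETS and ERR matches printed in capitals above. Timm8b stood at 157 to 202 CPM in wild type, 155 to 171 in the Raptor KO and 143 to 185 in the DKO, and the groups overlapped. Its log2 fold change was -0.07 in the DKO against wild type (SE 0.12, interval -0.33 to 0.19, edgeR adjusted p = 0.708). In the Raptor KO Timm8b was at -0.09 (SE 0.13, edgeR adjusted p = 0.686), and between the knockouts the difference was 0.02 (SE 0.13).

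The nearest genes to Sdha and Sdhb were tested in the same way. Ccdc127, whose gene model begins 29 bases from that of Sdha, was at -0.09 in the DKO (SE 0.14, edgeR adjusted p = 0.694). Pdcd6, on the far side of Sdha and encoding a calcium-binding protein, rose in the DKO (0.55, SE 0.18, edgeR adjusted p = 0.0374) and in the Raptor KO (0.79, SE 0.19, edgeR adjusted p = 0.00999). Padi2 and Atp13a2 beside Sdhb did not pass the test in either. Il18, beside Sdhd, and Cfap126, beside Sdhc, had too few counts to be tested.

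Over the 11 libraries, among the genes whose log2 CPM followed Sdhd most closely, of 6400 well-measured genes, were Stx4a (Pearson r = 0.955), Arhgef10l (0.940), Mrps28 (0.937) and Eloc (0.936). Stx4a encodes a plasma membrane syntaxin, Mrps28 a protein of the mitochondrial ribosome and Eloc elongin C. In the 7 libraries that were not DKO, r was 0.915 for Stx4a, 0.868 for Eloc, 0.807 for Mrps28 and 0.767 for Arhgef10l. Stx4a stood at 24.6 to 33.3 CPM in wild type, 26.0 to 34.9 in the Raptor KO and 20.2 to 24.1 in the DKO, a much narrower range than that of Sdhd. Mrps28 was closer to it in size, at 8.79 to 34.0, 20.3 to 31.1 and 3.16 to 12.9 CPM.

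The partners followed other genes. Sdha went with Ndufa5 (r = 0.960), Atp5mpl (0.944) and Cox4i1 (0.941), which belong to complex I, ATP synthase and cytochrome oxidase. Sdhb went with Prdx5 (0.983), a peroxiredoxin, Got1 (0.980), the cytosolic aspartate aminotransferase, and Cox5a (0.976), and kept r at 0.919 or more with them without wild-type replicate 4. Sdhc went with Bola3 (0.881), an iron-sulfur cluster factor, Sav1 (0.880) and Pmpcb (0.877), part of the mitochondrial processing peptidase. Among the subunits themselves r was 0.749 for Sdhc with Sdhd (0.527 in the 7 libraries that were not DKO) and -0.169 for Sdha with Sdhd. Sdha with Sdhb was at 0.373 over all libraries, 0.664 in those 7 and -0.326 without wild-type replicate 4. Sdhb with Sdhd was at 0.307 over all libraries, 0.804 without wild-type replicate 4 and -0.653 in the same 7. The libraries share genotype, run and depth, and these correlations describe them only.

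Complex II is built with the help of 4 assembly factors. Sdhaf2 attaches FAD to Sdha, Sdhaf4 binds the flavinated Sdha, and Sdhaf1 and Sdhaf3 act on Sdhb and its clusters. Of these, 1 of 4 was called lower and 0 higher in the DKO, and 0 of 4 were called in the Raptor KO, with medians of 0.09 and 0.29. Over all genes 13.7% were called lower and 13.0% higher in the DKO, and 18.2% were called in the Raptor KO, so 1 and 0 of 4 are no result about these factors.

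Sdhaf3 stood at 12.0, 17.2, 14.5 and 11.5 CPM in wild type, at 9.999, 10.3 and 9.69 in the Raptor KO and at 6.64, 11.6, 9.28 and 8.14 in the DKO, with 1 DKO library inside the wild-type range. It fell by 0.61 (log2) in the DKO (SE 0.20, edgeR adjusted p = 0.0365), a call that ended in 16 of 23 alternatives, among them leaving out wild-type replicate 1, 2 or 3 or DKO replicate 1, 3 or 4. Sdhaf4 stood at 25.2 to 36.1 CPM in wild type and 38.2 to 43.6 in the Raptor KO, apart from each other, with a log2 fold change of 0.46 (SE 0.16, edgeR adjusted p = 0.0523). In the DKO it stood at 33.4 to 41.9 CPM and overlapped wild type. Sdhaf1 (13.7 to 25.9 CPM over all libraries) and Sdhaf2 (20.2 to 32.9) did not pass the test in either comparison. The Raptor KO libraries were also apart from wild type for Sdhaf2 (all higher) and Sdhaf3 (all lower). The share of all genes apart in that comparison is not reported here.

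**Figure D4:**
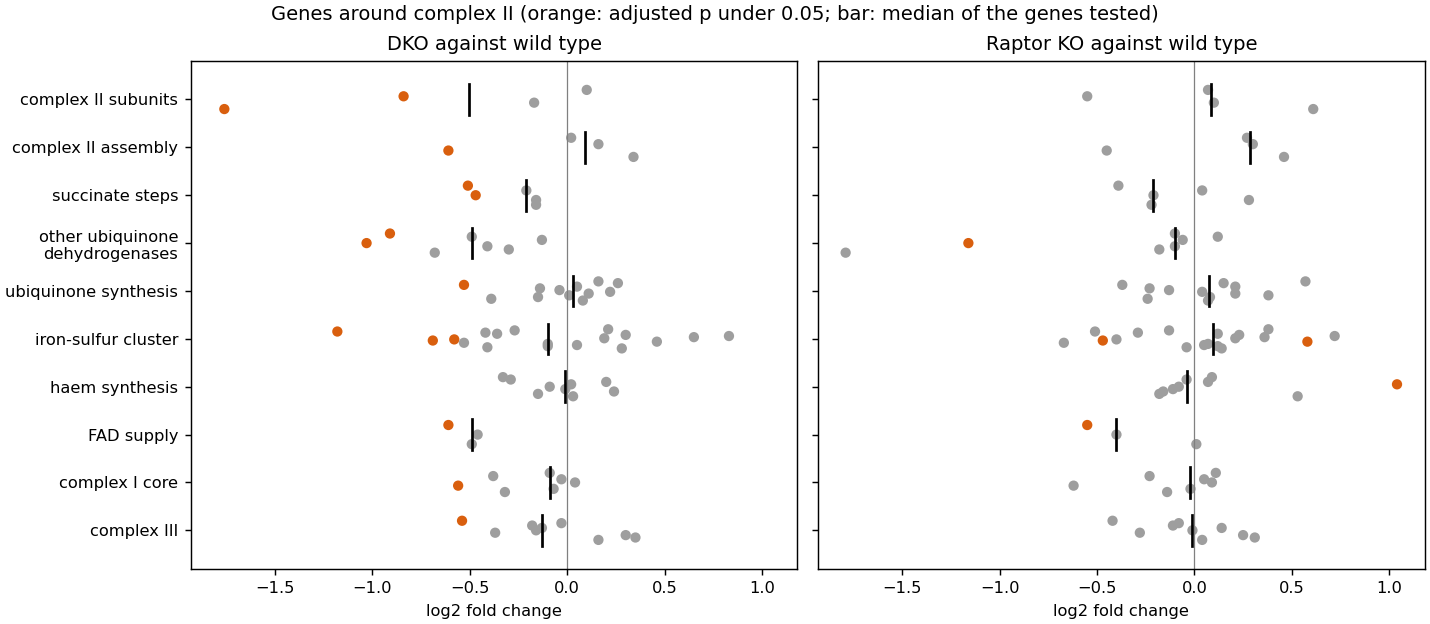
Log2 fold changes against wild type (horizontal axis) of the complex II subunits and of the genes in 9 related lists, each point 1 tested gene, with orange for an adjusted p under 0.05 and a bar at the median. Sdhd, at -1.76, is the farthest point from 0 in the left panel, and Gpd2 is called lower in both. Sdhd was chosen on the DKO and Raptor KO libraries, so its place is not independent of that choice.

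Genes that supply the cofactors of complex II were counted list by list, and the lists below are read against the all-gene shares of 13.7% called lower and 13.0% called higher in the DKO and 18.2% called in the Raptor KO. Of 18 iron-sulfur cluster genes, 3 were called lower and 0 higher in the DKO (median -0.10), a share near that of all genes. They were the scaffold Iscu (-1.18, SE 0.18, edgeR adjusted p = 0.000159), the late-acting factor Isca1 (-0.69, SE 0.13, edgeR adjusted p = 0.000951) and Glrx5 (-0.58, SE 0.16, edgeR adjusted p = 0.0121). In the Raptor KO Isca1 was called lower (-0.47, SE 0.14, edgeR adjusted p = 0.0286) and Isca2 higher (0.58, SE 0.18, edgeR adjusted p = 0.0377), with a median of 0.09, and 2 of 18 is below the all-gene share. Of the 3 tested genes for FAD supply, Rfk, the kinase that makes FMN from riboflavin, fell in the DKO (-0.61, SE 0.14, edgeR adjusted p = 0.00358) and in the Raptor KO (-0.55, SE 0.15, edgeR adjusted p = 0.0165). Of 9 haem synthesis genes 0 were called in the DKO and 1 in the Raptor KO, Uros (1.04, SE 0.26, edgeR adjusted p = 0.0107), at 2.71 to 4.28 CPM in wild type and 6.23 to 9.23 there.

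On the substrate side, the 5 tested genes of the steps that make or use succinate included 2 called lower in the DKO. These were Sucla2 (-0.47, SE 0.12, edgeR adjusted p = 0.00642) and Suclg1 (-0.51, SE 0.13, edgeR adjusted p = 0.00798), subunits of succinyl-CoA ligase, which releases succinate. None of the 5 was called in the Raptor KO, and the median was -0.21 in both. Of 12 tested ubiquinone synthesis genes, 1 was called lower in the DKO, Coq2 (-0.53, SE 0.16, edgeR adjusted p = 0.0232), and 0 in the Raptor KO. Over all genes 13.7% were called lower in the DKO, so 1 of 12 is below the background, and 2 of 5 rests on few genes.

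Other enzymes that feed electrons to ubiquinone were represented by 7 tested genes. Of these, 2 fell in the DKO and 1 in the Raptor KO, with medians of -0.49 and -0.10. Gpd2, the mitochondrial glycerol-3-phosphate dehydrogenase, stood at 238 to 289 CPM in wild type, 106 to 123 in the Raptor KO and 123 to 137 in the DKO. It fell by 1.16 (SE 0.12, edgeR adjusted p = 1.63e-05) and 1.03 (SE 0.11, edgeR adjusted p = 8.16e-06) in log2. Etfdh, which passes electrons from fatty acid oxidation, fell in the DKO (-0.91, SE 0.23, edgeR adjusted p = 0.00852) at 14.5 to 25.9 CPM, against 21.4 to 46.8 in wild type. For comparison, 1 of 7 core complex I genes (Ndufs8, -0.56, SE 0.19, edgeR adjusted p = 0.0421) and 1 of 9 complex III genes (Uqcrc1, -0.54, SE 0.16, edgeR adjusted p = 0.0213) were called lower in the DKO, and 0 of either in the Raptor KO. Both shares lie at the 13.7% of all genes called lower in the DKO. With 1 library left out, the count ran from 0 to 3 for complex I (3 without wild-type replicate 3) and from 0 to 4 for complex III (4 without wild-type replicate 4). Without wild-type replicate 4, Ndufs8 was at -0.25 and not called, and Uqcrc1 at -0.35.

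The calls in these lists differed in how they held over the 23 alternatives. Gpd2 in both comparisons and Iscu in the DKO kept theirs in all 23, and Isca1 in the DKO lost it in 1. The other DKO calls ended in 4 (Sucla2), 6 (Suclg1, Etfdh, Rfk), 8 (Glrx5, Uqcrc1), 12 (Coq2) and 17 (Ndufs8). In the Raptor KO they ended in 1 for Uros (without Raptor KO replicate 1), 6 for Rfk, 7 for Isca2 and 9 for Isca1. In each list with 0 called by edgeR, 1 gene had an unadjusted p under 0.05. In those lists DESeq2 called 1 succinate gene and 1 complex I gene, and limma on the TPM called 1 gene each for assembly, succinate and ubiquinone synthesis.

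Several measures of the libraries moved with genotype. Library totals ran from 2791339 to 6328533 counts. Rptor, which encodes Raptor, was at 8.57 to 10.6 CPM in wild type, 3.85 to 4.99 in the Raptor KO and 4.07 to 5.37 in the DKO, and Mtor tags were at 15.2 to 28.2, 18.2 to 22.6 and 31.8 to 39.5 CPM. Rptor was called lower in both knockouts, and Mtor higher in the DKO (log2 fold change 0.78, SE 0.19, edgeR adjusted p = 0.00534). In TPM Mtor stood at 1.97 to 4.98 in wild type, 2.83 to 3.12 in the Raptor KO and 26.8 to 38.7 in the DKO. Why the 2 scales differ for Mtor was not tested. Where the loxP sites lie was not given, so 3' tags do not check either deletion. Of 4 myosin genes Myh7 and Myh1, of slow and of fast IIx fibres, were called higher and Myh4 lower in both knockouts, with Myh7 at a log2 fold change of 1.34 in the Raptor KO (SE 0.22, edgeR adjusted p = 0.000596). The Myh4 call ended in 15 of 23 alternatives in the DKO and 7 in the Raptor KO, that of Myh1 in 7 in the Raptor KO and that of Myh7 in 1 in the DKO. Of 6 fibroblast markers, 4 were called higher in the DKO and 3 in the Raptor KO, with summed levels of 575 to 902 CPM in wild type, 922 to 1040 in the Raptor KO and 1035 to 1208 in the DKO. Of 6 macrophage markers 3 were called higher in each, with sums of 58.6 to 108, 78.8 to 167 and 109 to 147 CPM. Of 4 smooth muscle and pericyte markers 1 was called higher in each. In neither were any of the 3 Schwann, 3 adipocyte, 3 erythroid and 5 endothelial markers called. Over all genes 13.0% were called higher in the DKO, and 18.2% were called in either direction in the Raptor KO. The 5 endothelial markers summed to 103 to 177, 110 to 130 and 103 to 129 CPM, all 7 myofibre markers were detected, with 3 called higher and 1 lower in each knockout, and the satellite cell markers summed to at most 2.07 CPM. The part of fibre type, cell type markers, run and Xist in the levels of Sdhb and Sdhd was not tested beyond the alternatives given with those genes.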

How the data were processed

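Gene expression was measured in 11 gastrocnemius libraries, each titled as 1 mouse. The labels do not say how the animals were housed or bred, so p-values measure the spread between these libraries. The authors deposited expected counts per gene, not normalized, with GRCm38 (mm10) as the build and fastp 0.20.0, STAR 2.7.0 and also RSEM 1.3.3 as the tools, per the submitters' processing notes. They also deposited TPM for all libraries in 1 table. The annotation release, filters and strand setting are not given in the sources used here. GENCODE M21 gave positions. The deposited tables hold 6 columns that match no sample, which were not used.

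Expected counts were rounded (2.25% were not whole). The test was that of edgeR 4.0.16 (R 4.3.3) after filterByExpr on the groups (10505 genes, 99.54% of counts), with TMM and a robust quasi-likelihood fit of 3 groups and 11 libraries with 8 residual degrees of freedom. The biological coefficient of variation was 20.6%. Library totals of 2791339 to 6328533 counts limit the precision for genes with few counts, such as Sdhd. The script was tested on simulated data. Intervals of fold changes are 95%.

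Other settings tried were scaling by library totals or by DESeq2 size factors, no filter, the 2 groups alone, a term for sequencing run, the smaller run (2 libraries) removed, DESeq2 1.42.0, limma 3.58.1 on log2 TPM with a pseudocount of 1 or 0.1 or without a filter, Xist as a covariate, and each library left out. The 7 libraries without Xist were chosen as an alternative after seeing the data.

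The subunits and the gene lists were chosen with earlier results of these data known. Named genes were the subunits, the assembly factors, the nearest protein-coding neighbours, Rptor and Mtor. From each list up to 4 called genes per comparison were named. The closest genes by Pearson r of log2 CPM, with a mean log2 CPM of at least 3, were 5 for Sdhd and 3 for each partner. Of the genes so named, 2 are not reported here.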

Additional observations from a re-analysis of the deposited data

How the results depend on the processing

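Outside leave-one-out, the Sdhd fall against wild type in the double knockout kept its call in 11 other settings and lost it in the libraries without Xist (-1.28). Sdhb in that comparison lost its call with run as a covariate (-0.83), without the smaller run (-0.83), with limma on unfiltered TPM (-0.59), with Xist as a covariate (-0.60) and in the libraries without Xist (-0.94). The subunits called there then numbered 1 with either run setting or Xist as a covariate and 0 in the libraries without Xist, where 472 genes were called in all. Sdhc turned to 0.06 with library totals. Sdha became called on TPM at 0.64 in the double knockout and at 0.49 to 0.50 (0.49 unfiltered) in the Raptor knockout, where 1 subunit was then called. In the Raptor knockout Sdha turned to -0.02 in the libraries without Xist. Genes called there numbered 1162 with limma on unfiltered TPM and 1265 without Xist libraries. Some of these settings use fewer libraries or more genes, and what caused the changes was not tested.

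Between the knockouts, 105 genes were called without a filter, 157 with the 2 groups alone, 91 with DESeq2, 1 and 9 with limma on filtered (pseudocount 1) and unfiltered TPM, and 0 with Xist as a covariate or without the Xist libraries. Sdha moved to 0.14 on TPM and 0.15 with Xist as a covariate, Sdhb to 0.03 with Xist as a covariate, and Sdhc to -0.40 without the Xist libraries.

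With each library left out in turn, the ranges against wild type in the double knockout were 0.02 to 0.22 for Sdha, -1.0 to -0.47 for Sdhb, -0.23 to -0.12 for Sdhc and -1.95 to -1.57 for Sdhd, with 2 subunits called each time and 2160 to 3344 genes in all. In the Raptor knockout they were -0.03 (without wild-type replicate 3, a change of sign) to 0.20 for Sdha, -0.73 to -0.18 for Sdhb, 0.05 to 0.15 for Sdhc and 0.33 to 0.84 for Sdhd, with 0 to 1 subunits called and 1140 (without Raptor-knockout replicate 1) to 2413 genes. Without Raptor-knockout replicate 3 there were 1224. Between the knockouts they were -0.03 to 0.08, -0.34 to -0.26, -0.34 to -0.23 and -2.60 to -2.09 in the same order, with 0 (without Raptor-knockout replicate 1 or 3) to 97 (without wild-type replicate 4) genes called. No paired analysis was possible because the labels give no replicate numbers shared between groups.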
